A study of Homo sapiens with 24 samples.

Results

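The growth of the miR-28 effect between 12 h and 24 h of induction was measured as the difference of 2 differences, the miR-28 minus control contrast at 24 h less the same contrast at 12 h. It used all 24 arrays of the series and 11380 genes tested, of 19775 genes with a probe set. The cells were P3HR1, an established line from a Burkitt lymphoma, a germinal centre type B-cell tumour. In miR-28 cells the pRTS1 vector made GFP and the miR-28 precursor upon addition of doxycycline, and in control cells it made GFP alone. The 4 groups were miR-28 cells at 12 h, control cells at 12 h, miR-28 cells at 24 h and control cells at 24 h, with 6 arrays each. Every group held 3 inductions of each of 2 bulk populations, A and B, made for that vector, and all arrays, controls included, were of doxycycline-treated cells. The doxycycline dose reads 0.1 ug/ml in the treatment field and 1 ug/ml in the source field. Since no uninduced cells were arrayed, effects at a single time cannot be told apart from differences the populations already had. The labels do not say that population A of one vector belongs with population A of the other, and p-values measure mainly the spread between inductions.

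miR-28 is a microRNA whose precursor gives 2 mature strands, and a mature strand guides silencing proteins to messenger RNAs that pair with its seed. It is expressed in germinal centre B cells and is low in many B-cell lymphomas. A dividing cell makes its cell-cycle transcripts in waves. E2F factors drive the genes of DNA replication around the G1/S transition, and the genes of the spindle, kinetochore and cytokinesis follow in G2 and mitosis, where their transcripts peak. In a culture of mixed phases the level of such a transcript depends both on how many cells are in that phase and on the RNA per cell, which bulk arrays cannot tell apart.

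The mature 3p strand is shown because it is the induced sequence that the RefSeq table holds (GRCh38.p14, chr3:188688834-188688855, plus strand), with the seed, bases 2 to 8, in capitals.
hsa-miR-28-3p: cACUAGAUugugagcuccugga

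The labelled cell type was checked against marker genes. Over 7 B-cell markers on the array the median was 9219, with MS4A1 highest at 18570. Medians were 46.45 for markers of fibroblasts and epithelium, 63.57 for those of T cells, 45.36 for those of myeloid cells and 35.72 for those of NK cells. The highest of these was DCN, a fibroblast gene, at 515.4, and levels of different probe sets compare only roughly. Arrays of one group had a Pearson r of 0.954 to 0.969 across genes (60 pairs), and none held identical values. The median intensity per array ran from 82.27 to 93.16 in miR-28 cells and from 78.89 to 92.82 in control cells at 12 h. At 24 h it ran from 73.23 to 86.69 in miR-28 cells and from 77.99 to 91.85 in control cells. ACTB control probe sets at the 3' and 5' end gave a log2 ratio, a sign of RNA quality, that was above 1 on 2 arrays, miR-28 population B induction 2 at 12 h (1.05) and control population B induction 2 at 24 h (1.59).

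No single gene differed in its miR-28 effect between the times at an adjusted p under 0.05. limma called 0 of 11380 genes (0%), with a smallest adjusted p of 0.291, while 386 genes were higher (3.39%) and 401 were lower (3.52%) at an unadjusted p under 0.05. A positive difference means that miR-28 cells stood higher relative to control cells at 24 h than at 12 h. The median difference over all genes was 0.01 (log2) and the median SE was 0.197, so the 95% interval of a typical gene reached 0.409 to either side. That SE compares with 0.135 for the effect at a single time, since the difference carries the error of 4 groups. With 6 arrays a group, a smaller change would leave 0 inside the interval of a typical gene. A call after adjustment over all genes asked for a larger change still. The split by direction depended on scaling. Median centring of the arrays moved the median of all genes to 0.09 and gave 641 higher (5.63%) and 156 lower (1.37%) at an unadjusted p under 0.05, with 0 called.

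The component contrasts did hold calls. At 12 h 61 genes passed (0.536%), 25 higher and 36 lower in miR-28 cells. At 24 h 609 passed (5.35%), 296 higher (2.6%) and 313 lower. With median centring the splits were 12 higher and 33 lower at 12 h and 395 higher and 149 lower at 24 h. Counts at 2 times do not show that effects grew, and the difference itself, which tests this, called none. Between 12 h and 24 h 302 genes rose and 228 fell in miR-28 cells (4.66% together), and 410 rose and 289 fell in control cells (6.14%). Median centring turned these into 529 and 57 in miR-28 cells and 280 and 141 in control cells. The 12 h and 24 h comparisons share no arrays. Across the 11380 genes their effects had a Pearson r of 0.201 and a Spearman rho of 0.246, with 60.3% of genes on the same side of 0 at both times. Across the 246 cell-cycle genes r was 0.521 and rho 0.418, and 60.2% were lower in miR-28 cells at both times, against 26.4% of all genes. These are correlations over genes, which are not independent, and brightness and population are shared by the points.

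**Figure D1:**
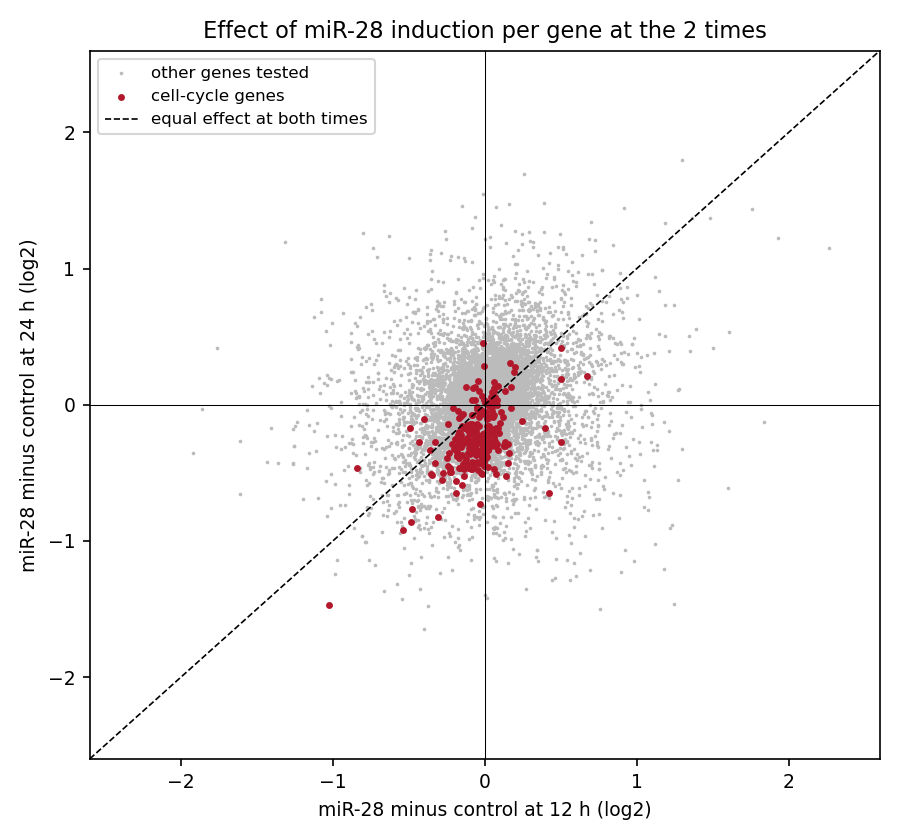
Effect of miR-28 induction on each gene, miR-28 minus control on the log2 scale, at 24 h (vertical axis) against 12 h (horizontal axis). Red points are the 246 cell-cycle genes and grey points the other genes tested. The dashed line marks an equal effect at both times. Most cell-cycle genes lie below the line and below 0 at 24 h, while along the 12 h axis they sit around 0.

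Genes that were called at one time show how the effects ran at the other. Of the 61 genes called at 12 h 60 had the same sign at 24 h, with a median absolute effect of 0.564 at 12 h and 0.634 at 24 h, and 31 were larger at 24 h. Of the 609 called at 24 h 527 had the same sign at 12 h, with a median absolute effect of 0.148 at 12 h and 0.427 at 24 h, and 590 were larger at 24 h. Each set was chosen on its own time, which favours that time in these medians. Among the 401 genes lower in the difference at an unadjusted p under 0.05, 117 had the same sign at both times with a larger effect at 24 h, 9 had a smaller one, and 275 lay on opposite sides of 0. Among the 386 higher ones the counts were 96, 9 and 281. Both sets were chosen by a large difference between the times, which by itself favours opposite signs in these counts.

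The cell-cycle genes leaned one way as a group. Their lists were written with earlier results of these data known, so this lean is no independent evidence. Of 266 genes written into 15 cell-cycle lists, 254 were on the array and 246 passed the filter on dim genes. Their median difference was -0.21 (log2), against 0.01 over all genes, and 207 of the 246 lay below 0 (84.1%, against 49% of all genes). At an unadjusted p under 0.05, 66 were lower (26.8%, against 3.52% of all genes) and 0 were higher, but limma called 0 of them after adjustment over all genes. With population means as the unit 25 were lower (10.2%, against 3.14% of all genes). With median centring the list median was -0.12 and 21 were lower at an unadjusted p under 0.05 (8.54%, against 1.37% of all genes). The list median minus that of all genes was -0.213 without and -0.212 with median centring. Cell-cycle genes are bright, 115 of the 246 lying in the brightest of 4 equal classes of genes, where the median SE was 0.126 and 7.52% of all genes had an unadjusted p under 0.05 in either direction. The 246 genes rise and fall together across cells, so they are not 246 separate observations.

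At 12 h the cell-cycle genes lay close to control, and at 24 h they lay lower. The median effect was -0.04 at 12 h and -0.27 at 24 h, against 0.01 and 0.02 over all genes. At 12 h 161 of the 246 lay below 0 and 5 were called lower (2.03%, against 0.316% of all genes). At 24 h 212 lay below 0 and 66 were called lower (26.8%, against 2.75% of all genes). None was called higher at either time. The 5 genes called lower than control at 12 h are named here after their values were seen. They were SKA1 (-1.03 ± 0.21), the clamp-loader subunit gene RFC3 (-0.54 ± 0.10), the D-type cyclin gene CCND3 (-0.48 ± 0.10), E2F2 (-0.48 ± 0.10) and DCTPP1 (-0.33 ± 0.06), a dCTP pyrophosphatase gene (log2 ± SE, limma adjusted p 0.0117 to 0.0313). All 5 were also called lower at 24 h.

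The same pattern can be read as change with time. In miR-28 cells 26 of the 246 rose between 12 h and 24 h (10.6%, against 2.65% of all genes) and 14 fell (against 2% of all genes). In control cells 77 rose (31.3%, against 3.6% of all genes) and 1 fell, H2AC6 (against 2.54% of all genes). The 14 that fell in miR-28 cells were CENPE, CENPF, CENPN, KIF20A, AURKA, BIRC5, CCNB1, CCNB2, PLK1, DLGAP5, KIF2C, KIF4A, MAPRE1 and CDC20, named after their values were seen. They encode mitotic cyclins and kinases, kinesins, a microtubule end protein, a survivin protein of the chromosomal passenger complex, centromere proteins and the APC/C activator of mitosis. The fall was 0.60 on the log2 scale for CENPN, where the change was -0.23 in control cells, and 0.27 for CCNB1, where it was -0.05 in control cells. None of the 14 was called in control cells. The difference of effect and these changes use the same arrays, so they restate each other in part.

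Each array's mean over the 246 genes showed the spread between populations. With the 12 h control mean set to 0, it lay between -0.10 and -0.01 (median -0.06) on miR-28 arrays and between -0.09 and 0.08 (median 0.00) on control arrays at 12 h. At 24 h it lay between -0.05 and 0.05 (median -0.01) on miR-28 arrays and between 0.20 and 0.25 (median 0.25) on control arrays. The genotypes overlapped at 12 h and did not overlap at 24 h. At 12 h control population A lay at 0.07 to 0.08 and control population B at -0.09 to -0.06, with no overlap between these populations. At 24 h miR-28 populations A and B averaged 0.01 and -0.02, and control populations A and B averaged 0.247 and 0.222.

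**Figure D2:**
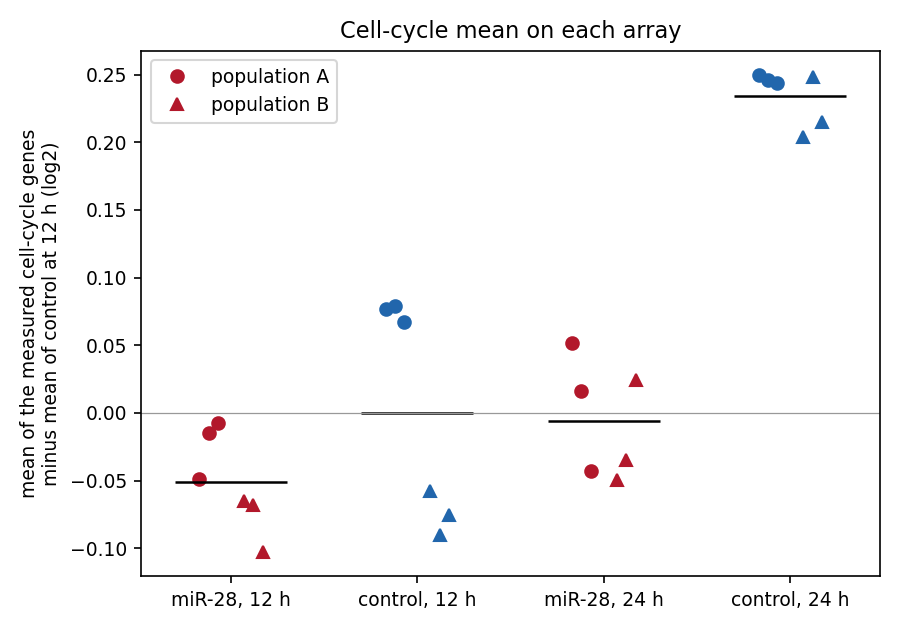
Mean log2 intensity of 246 cell-cycle genes on each of the 24 arrays, relative to the control mean at 12 h. Red is miR-28 and blue is control, circles are population A and triangles population B, and bars are the mean of 6 arrays. The 6 control arrays at 24 h sit between 0.20 and 0.25, above all other arrays.

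Each of the 4 populations gives 1 change with time, and these are the independently made units. Both miR-28 changes lay below both control changes for 132 of the 246 cell-cycle genes (53.7%, against 18.3% of all genes), and above both for 9 (3.66%, against 19.6%). The trait was not particular to the cell cycle. The share below was 77.8% of 9 heat shock and 68.8% of 16 ATF4 response genes. It was 50% of 14 glycolysis and of 10 cholesterol synthesis genes, and 5% of 20 B-cell receptor signalling genes. The median change of the 246 genes was 0.04 in miR-28 A and 0.05 in miR-28 B, against 0.154 in control A and 0.263 in control B. With median centring 80 cell-cycle genes had both miR-28 changes below both control changes (32.5%, against 9.8% of all genes) and 25 had them above (10.2%, against 27.9%). With population A of both vectors alone the median difference was -0.139, and with population B alone -0.236. Without the 2 arrays of high ACTB ratio it was -0.195, with 59 genes lower at an unadjusted p under 0.05 (24%, against 3.65% of all genes).

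**Figure D3:**
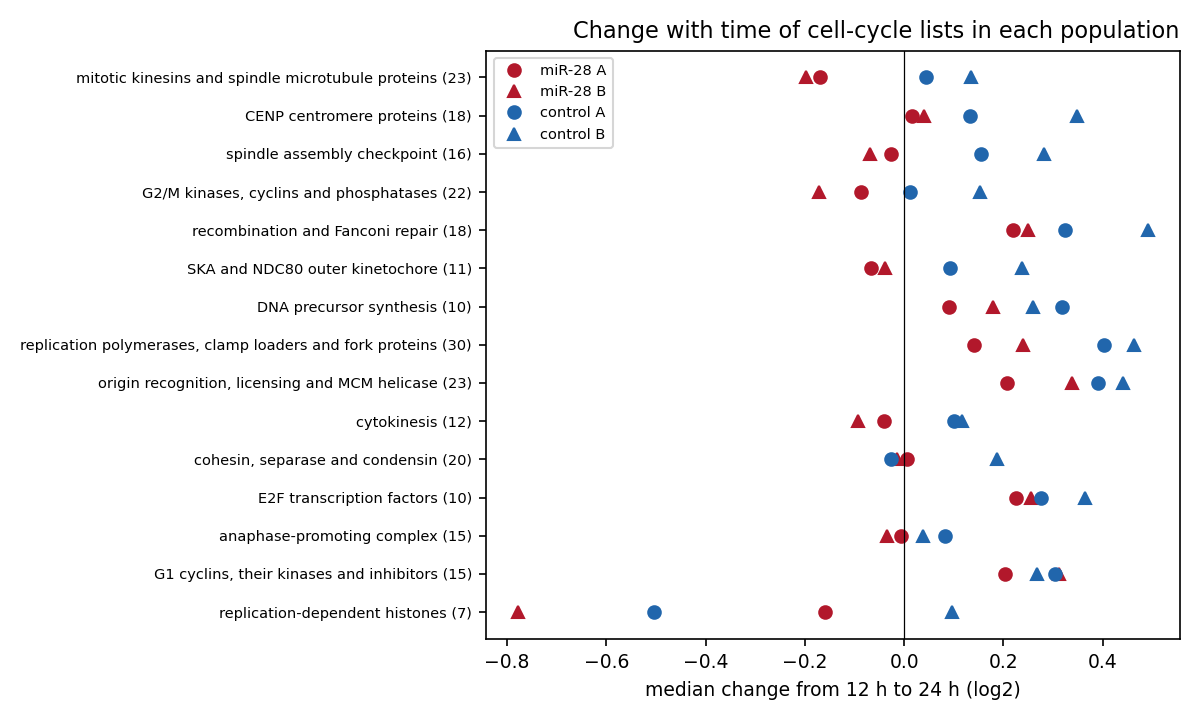
Median change from 12 h to 24 h (log2) over the measured genes of each cell-cycle list, with the number of genes in brackets, in miR-28 populations A and B (red) and control populations A and B (blue). In the lists of kinesins, G2/M genes, spindle checkpoint, outer kinetochore, cytokinesis and the anaphase-promoting complex both miR-28 medians lie below 0 and both control medians above it.

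The lists of entry to the cell cycle come first. Over 15 measured G1 cyclins, their kinases and inhibitors, the median difference was -0.03. At an unadjusted p under 0.05, 1 was lower (6.67%, against 3.52% of all genes) and 0 were higher. CCND3 ranged from 3834 to 4969 (median 4582) on miR-28 arrays and from 4783 to 7884 (median 6432) on control arrays at 12 h. At 24 h it ranged from 4381 to 6455 (median 5709) on miR-28 arrays and from 9046 to 11570 (median 10320) on control arrays. The arrays overlapped at 12 h and did not at 24 h, and the effect was -0.48 ± 0.10 at 12 h and -0.86 ± 0.10 at 24 h, a difference of -0.38 ± 0.15 (unadjusted p 0.0218, limma adjusted p 0.619). CDC25A, a phosphatase that activates cyclin-dependent kinases, had -0.31 ± 0.17, and the inhibitor gene CDKN2A had 0.28 ± 0.17. The 10 E2F factors had a median of -0.11 with 0 at an unadjusted p under 0.05. E2F2 was lower at both times, at -0.48 ± 0.10 and -0.77 ± 0.10 (difference -0.29 ± 0.14), E2F7 had -0.27 ± 0.18 and E2F1 -0.34 ± 0.30.

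Replication genes stood slightly lower in miR-28 cells at 12 h and further below at 24 h. The 23 genes of origin recognition, licensing and the MCM helicase had a median effect of -0.12 at 12 h and -0.29 at 24 h, and 22 of the 23 differences lay below 0. The 30 polymerase, clamp-loader and fork genes had -0.09 and -0.30, with 27 below 0 in the difference. The 10 genes of DNA precursor synthesis had -0.07 and -0.28, with 9 below 0. At an unadjusted p under 0.05, 5, 7 and 2 members of these lists were lower (21.7%, 23.3% and 20%, against 3.52% of all genes) and none higher. With population means as the unit 2, 1 and 0 were lower, against 3.14% of all genes. In both genotypes these transcripts stood higher at 24 h: in the first list 10 of 23 rose in miR-28 cells and 14 of 23 in control cells, and in the second 6 and 18 of 30. Over all genes 2.65% rose in miR-28 cells and 3.6% in control cells. The median change of the fork genes was 0.178 in miR-28 cells and 0.444 in control cells.

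GINS2, a subunit of the GINS complex of the replicative helicase, ranged from 2664 to 3466 (median 3100) on miR-28 arrays and from 2856 to 3723 (median 3298) on control arrays at 12 h. By 24 h the values ranged from 3538 to 4382 (median 4213) on miR-28 arrays and from 5122 to 6051 (median 5565) on control arrays. It rose with time in both genotypes, by 0.42 in miR-28 cells and 0.74 in control cells, and the difference was -0.32 ± 0.11 (unadjusted p 0.00729, limma adjusted p 0.546). The other GINS gene of the list, GINS3, was level with time in miR-28 cells (-0.05) and rose by 0.38 in control cells, a difference of -0.43 ± 0.12, but its second probe set gave -0.06 ± 0.16. ORC1, the largest subunit of the origin recognition complex, had -0.38 ± 0.14. RRM2, the regulated subunit of ribonucleotide reductase, rose by 0.59 in miR-28 cells and by 0.90 in control cells, a difference of -0.31 ± 0.11, with -0.14 ± 0.14 on a second probe set. For the partner subunit gene RRM1 the difference was -0.38 ± 0.16, with -0.13 ± 0.13 on a second probe set. The thymidylate synthase gene TYMS had -0.25 ± 0.14. RFC4 and RFC1, of the clamp loader, had -0.39 ± 0.12 and -0.24 ± 0.09, and the primase gene PRIM1 -0.29 ± 0.11. A second RFC1 probe set of like brightness gave 0.14 ± 0.14.

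Recombination and Fanconi repair genes, which mend broken and crosslinked DNA in S phase, had a median effect of -0.07 at 12 h and -0.34 at 24 h over 18 genes, with 15 differences below 0. BRCA1, which acts in recombination, ranged from 1557 to 2186 (median 1955) on miR-28 arrays and from 1754 to 2232 (median 1883) on control arrays at 12 h. Its values at 24 h ran from 1869 to 2308 (median 2043) on miR-28 arrays and from 2511 to 3564 (median 3011) on control arrays. Its change with time was 0.11 in miR-28 cells (adjusted p 0.598), against a rise of 0.58 in control cells (limma adjusted p 0.000667). Its difference was -0.47 ± 0.13 and that of a second probe set -0.44 ± 0.20. BLM, a helicase gene, had -0.30 ± 0.12 and FANCG, of the Fanconi core complex, -0.33 ± 0.16.

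Genes of G2 and mitosis stood level with control cells at 12 h and lower at 24 h. The 22 G2/M kinases, cyclins and phosphatases had a median effect of -0.01 at 12 h and -0.29 at 24 h, with 20 differences below 0 and 12 lower at an unadjusted p under 0.05. The 23 mitotic kinesins and spindle proteins had 0.00 and -0.29, with a median difference of -0.31, 21 below 0 and 13 lower. The 16 spindle checkpoint genes had 0.00 and -0.29, with 15 below 0 and 8 lower. The 18 CENP proteins had -0.04 and -0.26, with 17 below 0 and 7 lower, and the 11 outer kinetochore genes 0.01 and -0.22, with 10 below 0 and 2 lower. No member of these 5 lists was higher at an unadjusted p under 0.05, and 0 passed after adjustment. Lower at an unadjusted p under 0.05 were 3.52% of all genes. With population means as the unit, the members lower at an unadjusted p under 0.05 were 6 of the kinesin and spindle, 5 of the G2/M, 3 of the checkpoint, 1 of the CENP and 0 of the outer kinetochore genes. The share of all genes was then 3.14%. Median differences were less negative in population A alone than in population B alone. They were -0.266 and -0.36 for the kinesin and spindle genes and -0.165 and -0.368 for the G2/M genes. For the checkpoint genes they were -0.167 and -0.343, for the CENP genes -0.143 and -0.356, and for the outer kinetochore genes -0.135 and -0.236. Of the 22 G2/M genes 5 fell with time in miR-28 cells and 4 rose in control cells, and of the 23 kinesin and spindle genes 5 fell and 4 rose. Over all genes 2% fell in miR-28 cells and 3.6% rose in control cells.

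**Figure D4:**
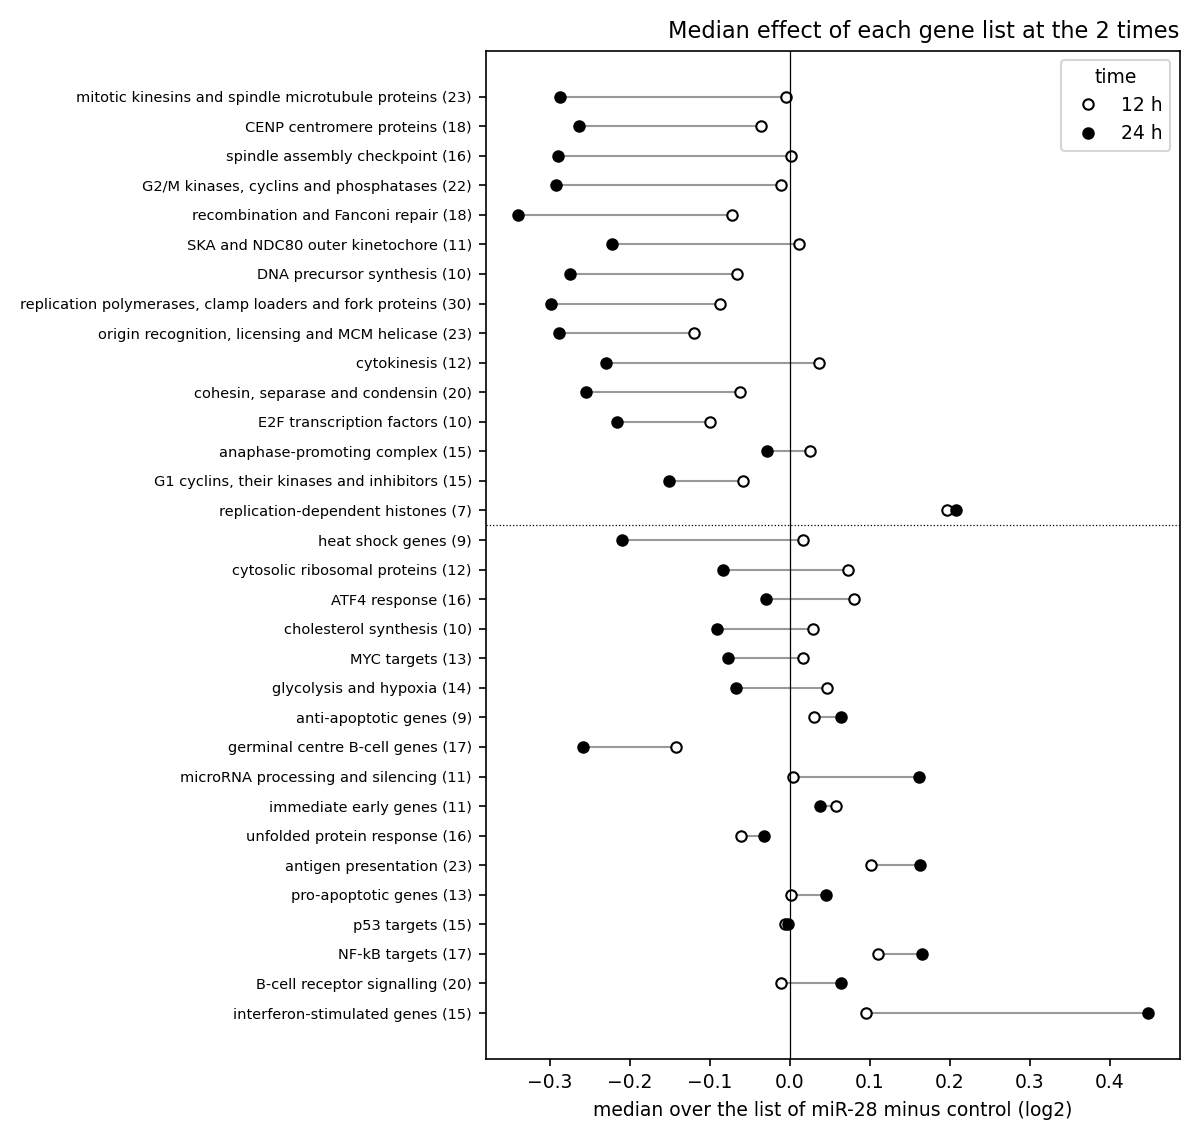
Median over each gene list of the miR-28 minus control effect (log2) at 12 h (open circles) and 24 h (filled circles), with the number of measured genes in brackets. The 15 cell-cycle lists stand above the dotted line, ordered by their median difference. The mitotic lists lie near 0 at 12 h and between -0.22 and -0.29 at 24 h, while histones and the anaphase-promoting complex differ little between times.

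ESPL1 encodes separase, the protease that cuts cohesin at anaphase. It ranged from 2611 to 3407 (median 2876) on miR-28 arrays and from 2645 to 2968 (median 2780) on control arrays at 12 h. At 24 h it ranged from 2096 to 2936 (median 2391) on miR-28 arrays and from 3079 to 3889 (median 3505) on control arrays. The groups overlapped at 12 h and were apart at 24 h. The effect was 0.07 ± 0.08 at 12 h and -0.51 ± 0.08 at 24 h (limma adjusted p 0.00051), a difference of -0.58 ± 0.12 (unadjusted p 6.9e-05, limma adjusted p 0.291), and a second probe set gave -0.45 ± 0.20. The changes with time were -0.29 and -0.23 in the miR-28 populations and 0.45 and 0.19 in the control populations.

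CCNA2, cyclin A2 of S phase and G2, had a median of 4025 on miR-28 arrays and 3820 on control arrays at 12 h, and of 3846 on miR-28 arrays and 5411 on control arrays at 24 h. All 6 miR-28 arrays (3300 to 4530) lay below all 6 control arrays (4839 to 5853) at 24 h. Its change with time was -0.01 in miR-28 cells, against a rise of 0.46 in control cells, and its difference was -0.47 ± 0.13 (unadjusted p 0.00133, limma adjusted p 0.431), with -0.48 ± 0.18 on a second probe set. AURKA, a mitotic kinase, fell by 0.38 with time in miR-28 cells, where control cells had 0.04. Its difference was -0.41 ± 0.11, with -0.40 ± 0.12 on a second probe set. PKMYT1, a kinase that holds CDK1 inactive, had -0.70 ± 0.23.

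CDC20, which activates the anaphase-promoting complex, ranged from 4075 to 5175 (median 4678) on miR-28 arrays and from 3838 to 5612 (median 4287) on control arrays at 12 h. By 24 h the values ranged from 2572 to 3756 (median 3281) on miR-28 arrays and from 3529 to 5293 (median 4534) on control arrays, with some overlap. It fell by 0.53 with time in miR-28 cells, where control cells had 0.00, a difference of -0.53 ± 0.15. The kinetochore genes ZWINT and KNTC1 had -0.35 ± 0.12 and -0.42 ± 0.15, and their changes with time were 0.06 and 0.01 in miR-28 cells, while both rose in control cells. MAPRE1, of growing microtubule ends, ranged from 7477 to 9921 on miR-28 arrays and from 9041 to 12800 on control arrays at 12 h. Its values at 24 h ran from 6168 to 6886 on miR-28 arrays and from 10250 to 13180 on control arrays. Its difference was -0.51 ± 0.13 (unadjusted p 0.000687, limma adjusted p 0.344), and a second probe set gave -0.32 ± 0.13. KIF15, a spindle kinesin, had -0.49 ± 0.13, and KIF22, a chromokinesin, -0.43 ± 0.13.

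At the kinetochore, the microtubule-binding genes NDC80 and NUF2 had -0.34 ± 0.15 and -0.38 ± 0.17, and SPDL1, which recruits dynein there, had -0.23 ± 0.12. The centromere genes CENPU, CENPO and MIS18A had -0.39 ± 0.12, -0.37 ± 0.13 and -0.34 ± 0.13. For CENPO a second, dimmer probe set pointed the other way (0.30 ± 0.31). SGO1, which protects centromeric cohesin, had -1.07 ± 0.34, but a second probe set gave 0.01 ± 0.22. The condensin gene NCAPH had -0.37 ± 0.13. For the 12 cytokinesis genes the median effect was 0.04 at 12 h and -0.23 at 24 h. KIF20A had a difference of -0.44 ± 0.15, RACGAP1 -0.41 ± 0.16 and KIF23 -0.44 ± 0.20, all proteins of the central spindle or midzone.

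The 15 genes of the anaphase-promoting complex had a median difference of -0.04. At an unadjusted p under 0.05, 1 was lower (6.67%, against 3.52% of all genes), its ubiquitin-conjugating enzyme UBE2C (-0.42 ± 0.15). The core subunit genes ANAPC7 and CDC16 had -0.14 ± 0.11 and 0.10 ± 0.10. The 7 measured replication-dependent histone genes had a median of 0.03 (with A populations alone 0.07, with B populations alone -0.26), with -0.57 ± 0.33 for H3C2, -0.46 ± 0.28 for H1-2 and 0.47 ± 0.29 for H2AC6. Most of their transcripts lack a poly(A) tail, and all 3 were dim. In population A alone the difference was 0.04 for H3C2 and 0.07 for H1-2.

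Promoters are shown for GINS2, a replication gene that rose with time in both genotypes, and for ESPL1 and CDC20, mitotic genes that stood lower at 24 h, as RefSeq windows of GRCh38.p14 from 250 bases before to 50 after the start. Capitals mark 3 motifs searched on both strands: E2F-type sites (TTTCCCGC, TTTGGCGC, TTTCGCGC or TTTGCCGC), the CHR element (TTTGAA or TTCGAA) and CCAAT. E2F sites are known from replication genes, and CHR elements with CCAAT boxes from genes of G2 and mitosis. The windows are chr16:85688905-85689204 on the minus strand, chr12:53268049-53268348 on the plus strand and chr1:43358731-43359030 on the plus strand.
GINS2: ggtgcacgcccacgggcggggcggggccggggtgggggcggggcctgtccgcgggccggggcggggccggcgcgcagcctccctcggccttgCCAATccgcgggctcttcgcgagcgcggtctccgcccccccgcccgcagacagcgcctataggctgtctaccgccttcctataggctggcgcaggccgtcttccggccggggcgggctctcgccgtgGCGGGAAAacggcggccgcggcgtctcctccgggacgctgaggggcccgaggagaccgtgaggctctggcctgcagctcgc
ESPL1: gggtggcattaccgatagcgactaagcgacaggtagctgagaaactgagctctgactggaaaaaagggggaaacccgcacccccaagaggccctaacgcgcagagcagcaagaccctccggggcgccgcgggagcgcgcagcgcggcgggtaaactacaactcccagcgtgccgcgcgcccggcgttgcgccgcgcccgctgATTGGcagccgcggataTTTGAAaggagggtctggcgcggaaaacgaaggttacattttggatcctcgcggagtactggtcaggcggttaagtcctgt
CDC20: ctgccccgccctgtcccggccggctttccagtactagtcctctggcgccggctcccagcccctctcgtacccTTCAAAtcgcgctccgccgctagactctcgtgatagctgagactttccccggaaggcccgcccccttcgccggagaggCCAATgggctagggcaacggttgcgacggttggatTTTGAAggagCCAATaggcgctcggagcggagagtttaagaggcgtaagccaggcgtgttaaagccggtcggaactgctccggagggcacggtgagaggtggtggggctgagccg

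Of 246 measured cell-cycle genes 215 matched a window. An E2F-type motif was in 50% of the 20 origin and helicase windows, in 30.8% of the 26 fork windows, in 21.4% of the 14 centromere windows, in 6.25% of the 16 G2/M windows and in 8.7% of the 23 kinesin windows. That compares with 5.3% of the 9285 windows of genes tested and 3.33% of all 27305 promoters. A CHR motif was in 10% of the origin and helicase windows, in 0% of the fork windows, in 57.1% of the centromere windows, in 62.5% of the G2/M windows and in 78.3% of the kinesin windows, against 12% for genes tested and 16.6% of all promoters. CHR and CCAAT stood together in 69.6% of the kinesin windows, in 5% of the origin and helicase windows, in 5.04% of those of genes tested and in 6.58% of all promoters. The kinesin share was the highest of the lists. It was 50% for G2/M and for centromere windows, 41.7% for the spindle checkpoint and 36.4% for cytokinesis. For the outer kinetochore it was 18.2%, for cohesin and condensin 16.7% and for the anaphase-promoting complex 0%. A match describes letters in a window, and no binding was measured.

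Outside the cell cycle, no gene passed either, and the 10 smallest p in each direction are given with that limit. SMIM19, a small membrane protein gene, had the smallest p of all (3.93e-05, limma adjusted p 0.291). It ranged from 4746 to 6051 (median 5098) on miR-28 arrays and from 5230 to 5827 (median 5579) on control arrays at 12 h. At 24 h it ranged from 3323 to 3946 (median 3490) on miR-28 arrays and from 4814 to 5465 (median 5221) on control arrays. It fell by 0.56 with time in miR-28 cells, where control cells had -0.10, and the difference was -0.46 ± 0.09.

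Of the 10 genes with the smallest p in the lower direction, ESPL1 was the one that the lists hold. Others with roles in division or replication were KNSTRN, a kinetochore and spindle protein gene (-0.54 ± 0.12), RNASEH2A, the catalytic subunit of ribonuclease H2 (-0.71 ± 0.16), FAM83D, a spindle protein gene (-0.40 ± 0.09), UBE2T, the Fanconi ubiquitin-conjugating enzyme (-0.41 ± 0.10), and PCLAF, a PCNA-binding protein gene (-0.39 ± 0.10). In KNSTRN the miR-28 arrays ranged from 2498 to 3183 and the control arrays from 2242 to 3054 at 12 h. At 24 h the miR-28 arrays ranged from 1986 to 2395 and the control arrays from 2868 to 3573, with no overlap. PCLAF had a change with time of 0.20 in miR-28 cells, which did not pass (adjusted p 0.0975), and rose by 0.59 in control cells (limma adjusted p 1.98e-05). The others were SPTLC2 of sphingolipid synthesis (-0.43 ± 0.11), with -0.13 to -0.31 on its other probe sets, MIF4GD, a translation factor for histone mRNAs (-0.44 ± 0.11), and PSG5 (-2.71 ± 0.65), a dim gene at 17.5 to 259.7.

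**Figure D5:**
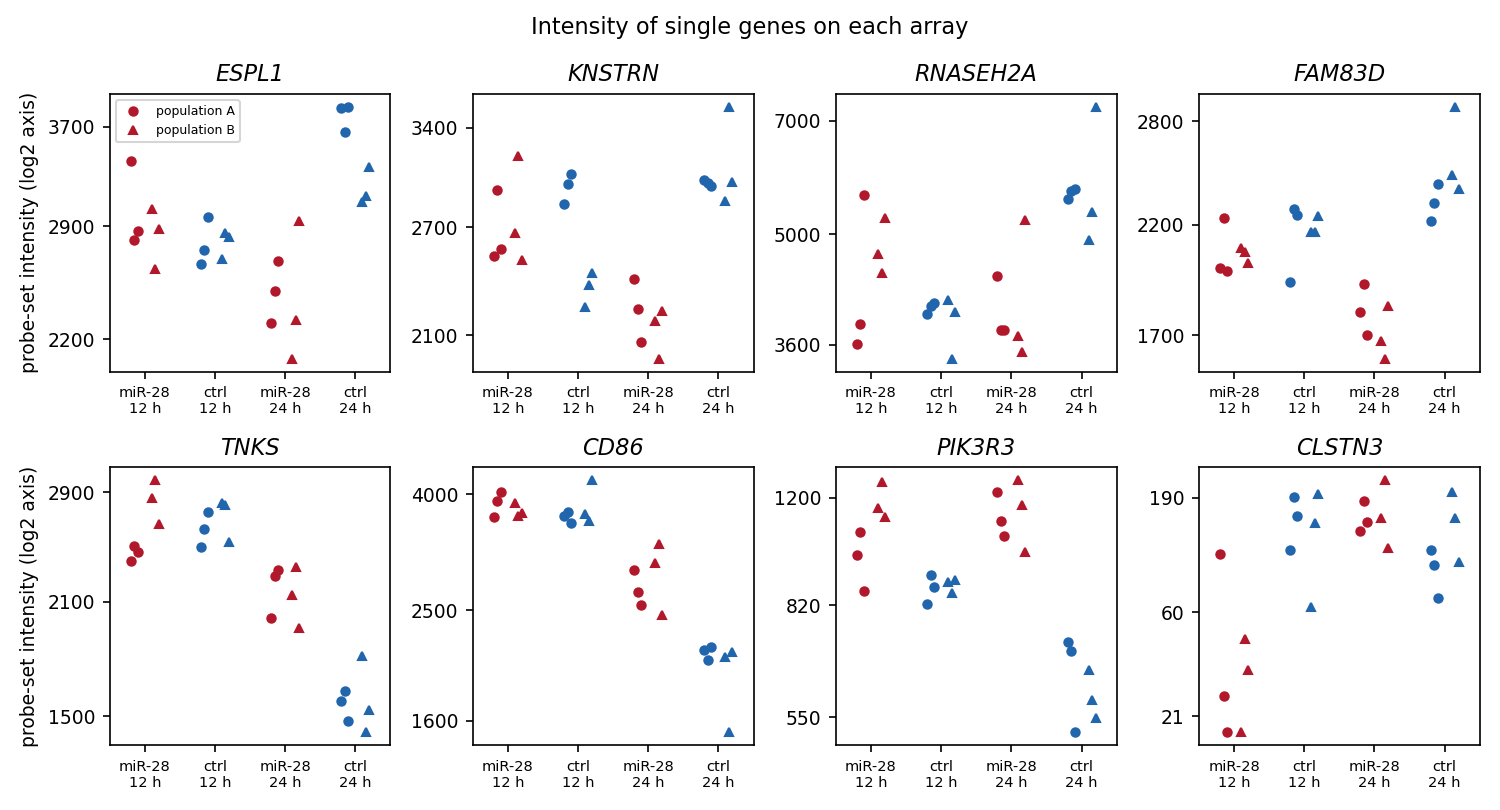
Probe-set intensity on each array (log2 axis, a scale of its own for each gene) for 4 genes with a lower and 4 with a higher effect at 24 h than at 12 h, by group. Red is miR-28 and blue is control, circles are population A and triangles population B. KNSTRN, FAM83D and ESPL1 show miR-28 arrays below control arrays at 24 h and a mix at 12 h. TNKS and CD86 show miR-28 arrays above control arrays at 24 h and a mix at 12 h. In PIK3R3 the miR-28 arrays lie above at 24 h, and most already do at 12 h.

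The 10 in the higher direction included surface receptors of B cells. FCGR2B, the inhibitory Fc receptor, ranged from 1244 to 1778 (median 1593) on miR-28 arrays and from 1430 to 1733 (median 1590) on control arrays at 12 h. By 24 h the values ranged from 1600 to 2253 (median 1920) on miR-28 arrays and from 1112 to 1369 (median 1293) on control arrays, without overlap. Its difference was 0.61 ± 0.14 (unadjusted p 0.000327, limma adjusted p 0.331). CD86, a co-stimulatory ligand, ranged from 3649 to 4038 on miR-28 arrays and from 3564 to 4235 on control arrays at 12 h, and from 2455 to 3265 on miR-28 arrays and from 1527 to 2157 on control arrays at 24 h. It fell with time in both genotypes, by 0.43 in miR-28 cells and by 0.90 in control cells, and the difference was 0.47 ± 0.12, with 0.24 ± 0.13 and 0.34 ± 0.18 on other probe sets. The inhibitory lectin SIGLEC10 had 0.57 ± 0.14, but 0.11 ± 0.22 on a second probe set.

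TNKS, a poly(ADP-ribose) polymerase gene, fell by 0.28 with time in miR-28 cells and by 0.76 in control cells. Its intensities at 24 h were 1946 to 2328 on miR-28 arrays and 1430 to 1788 on control arrays, and its difference was 0.48 ± 0.10, with 0.69 ± 0.19 on a second probe set. PIK3R3, a regulatory subunit of PI 3-kinase, was at 861.4 to 1271 on miR-28 arrays and 821.8 to 912.8 on control arrays at 12 h, and at 989.5 to 1279 on miR-28 arrays and 521.6 to 718.5 on control arrays at 24 h. Its effect was 0.29 ± 0.09 at 12 h (adjusted p 0.237) and 0.87 ± 0.09 at 24 h (limma adjusted p 5.59e-06), a difference of 0.58 ± 0.13. The remaining genes were MAP3K7CL (0.55 ± 0.14), which rose with time in miR-28 cells by 0.64, the lysosomal transporter gene MFSD8 (0.59 ± 0.13), the actin-linked adhesion gene PARVG (0.82 ± 0.18), with -0.07 ± 0.31 on a second probe set, and the kynurenine pathway enzyme gene KMO (0.88 ± 0.22).

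CLSTN3, a calsyntenin gene, had the largest of these differences, 2.18 ± 0.46 (limma adjusted p 0.291), and was dim. At 12 h it was at 17.9 to 107.2 (median 29.7) on miR-28 arrays and 62.9 to 196.7 (median 152.9) on control arrays. At 24 h it was at 114.6 to 227 (median 151.1) on miR-28 arrays and 69.4 to 201.8 (median 105.7) on control arrays. Without miR-28 population A induction 1 at 12 h, its highest miR-28 value at that time, it was 2.46 with a limma adjusted p of 0.0268, the one setting in which any gene passed.

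Other gene lists leaned in both directions. Of 9 measured heat shock genes, chaperones of unfolded protein, 8 lay below 0 and 4 were lower at an unadjusted p under 0.05 (44.4%, against 3.52% of all genes), with a median effect of 0.02 at 12 h and -0.21 at 24 h. They were DNAJA1 (-0.30 ± 0.09), DNAJB1 (-0.35 ± 0.10), HSPA4 (-0.30 ± 0.10) and HSPH1 (-0.32 ± 0.12), named after their values were seen, and 1 of the list was lower at that threshold with median centring (11.1%, against 1.37% of all genes). It was 1 as well with population means as the unit (11.1%, against 3.14% of all genes) and in population A alone (11.1%, against 2.64%). The 12 cytosolic ribosomal protein genes all lay below 0, with a median of -0.15, but the median was 0.02 with quantile normalization and 0.01 in population A alone. Of 15 interferon-stimulated genes 14 lay above 0, with a median of 0.30 and 4 higher at an unadjusted p under 0.05 (26.7%, against 3.39% of all genes). In population A alone 0 were higher, with a median of 0.159. Their median change with time was 0.03 in miR-28 A and 0.61 in miR-28 B, against -0.13 in control A and 0.07 in control B, highest in miR-28 B. The mean of the list on single arrays at 24 h ran from -0.135 to 1.12 in miR-28 cells and from -0.536 to 0.331 in control cells, relative to the control mean at 12 h, with overlap.

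Of 20 B-cell receptor signalling genes 15 lay above 0, with a median of 0.16 and 5 higher at an unadjusted p under 0.05 (25%, against 3.39% of all genes). With population means as the unit 1 was higher (5%, against 3.5% of all genes), and in population A alone 1 (5%, against 3%). The 5 were FCGR2B, the kinase gene SYK (0.30 ± 0.11), the exchange factor gene VAV1 (0.29 ± 0.12), the phosphatase gene INPP5D (0.33 ± 0.15) and the receptor chain gene CD79B (0.24 ± 0.10). The 7 B-cell markers had a median of 0.17. Their summed intensity was 60720 to 67550 on miR-28 arrays and 62810 to 68430 on control arrays at 12 h, and 54680 to 60350 on miR-28 arrays and 52480 to 58910 on control arrays at 24 h. For p53 targets the median difference was 0.06, for pro-apoptotic genes 0.05, for anti-apoptotic genes -0.05 and for MYC targets -0.07, with 0, 1, 0 and 0 higher and 0, 0, 1 and 0 lower at an unadjusted p under 0.05. Germinal centre genes, antigen presentation, NF-kB targets, immediate early genes, the unfolded protein response, the ATF4 response, cholesterol synthesis, glycolysis and microRNA processing had medians between -0.13 (ATF4 response) and 0.14 (NF-kB targets). Differences lay below 0 for 13 of 16 ATF4 response, 12 of 14 glycolysis and 8 of 10 cholesterol synthesis genes, against 49% of all genes. At an unadjusted p under 0.05, 0, 0 and 1 of them were lower, against 3.52% of all genes. For NF-kB targets the median was -0.10 with the A populations and 0.51 with the B populations, and the medians of antigen presentation, immediate early genes and the unfolded protein response also lay below 0 in A and above 0 in B.

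Published miR-28 targets were described as well. The 4 from work in B-cell lymphoma had been picked with help from these very arrays, which makes their direction no independent evidence. RAP1B, a small GTPase gene, ranged from 12490 to 14680 (median 13560) on miR-28 arrays and from 14580 to 18450 (median 15520) on control arrays at 12 h. Its values at 24 h ran from 10520 to 12810 (median 11310) on miR-28 arrays and from 15760 to 19940 (median 16650) on control arrays. Its effect was -0.23 ± 0.07 at 12 h (limma adjusted p 0.199) and -0.57 ± 0.07 at 24 h (adjusted p 1.95e-05), a difference of -0.34 ± 0.10 (unadjusted p 0.00242, adjusted p 0.431). BAG1, an anti-apoptotic co-chaperone gene, had -0.12 ± 0.07 and -0.40 ± 0.07, a difference of -0.28 ± 0.10, with -0.27 ± 0.11 and -0.08 ± 0.14 on other probe sets. The checkpoint gene MAD2L1 had -0.35 ± 0.15 and -0.52 ± 0.15, a difference of -0.17 ± 0.22 (95% interval -0.62 to 0.28), and of 0.02 in population A alone. RAB23, another small GTPase gene, had a difference of 0.33 ± 0.31, while its dimmer probe sets gave -0.94 ± 0.52 and -0.29 ± 0.65.

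Work in other cell types reported 10 targets, of which 7 were on the array and 6 were measured. TEX261, a vesicle export protein gene, had a difference of -0.37 ± 0.12 (unadjusted p 0.0063, limma adjusted p 0.527). The others were N4BP1 (0.15 ± 0.15), HOXB3 (0.21 ± 0.24), E2F6 (-0.09 ± 0.13), CDKN1A (0.16 ± 0.30) and the oxidative stress factor gene NFE2L2 (-0.02 ± 0.28), and none had an unadjusted p under 0.05. Dimmer N4BP1 probe sets gave -0.105 ± 0.236, -0.397 ± 0.275 and 0.509 ± 0.57. LPP, whose intron holds the chromosomal miR-28 locus, was lower at both times by like amounts, -0.67 ± 0.12 and -0.81 ± 0.12, a difference of -0.14 ± 0.17.

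Some genes had effects of like size at 12 h and 24 h on the probe set that stood for them. SPCS3, TBC1D4, STK35, GSPT2 and DHRS7 were named for having the smallest p at 12 h. That choice by itself favours a large effect at 12 h and little growth after it. SPCS3, of the signal peptidase complex, was at 2989 to 3747 on miR-28 arrays and 5102 to 6412 on control arrays at 12 h, and at 2674 to 3459 on miR-28 arrays and 5335 to 7124 on control arrays at 24 h. It was lower by 0.81 ± 0.08 and by 0.97 ± 0.08, with a difference of -0.16 ± 0.11 whose 95% interval ran from -0.39 to 0.08. Its other probe sets showed effects of -0.05 and -0.22 at 12 h and 0.00 and -0.09 at 24 h. TBC1D4, a RAB GTPase-activating protein gene, had -0.48 ± 0.06 and -0.57 ± 0.06 (difference -0.09 ± 0.08), and STK35, a kinase gene, -0.63 ± 0.08 and -0.50 ± 0.08 (0.13 ± 0.12). A second, dimmer STK35 probe set had -0.10 at 12 h and -0.42 at 24 h, a difference of -0.32 ± 0.33. GSPT2, a translation termination factor gene, stood higher by 0.89 ± 0.11 and 0.86 ± 0.11 (-0.03 ± 0.17) and the dehydrogenase gene DHRS7 by 0.46 ± 0.07 and 0.51 ± 0.07 (0.04 ± 0.11). Among the smallest p at 24 h, SNUPN, an import receptor of spliceosomal particles, had -0.32 ± 0.06 and -0.63 ± 0.06 (-0.31 ± 0.09), and the small GTPase gene RAB8B -0.44 ± 0.09 and -0.90 ± 0.09 (-0.46 ± 0.13). A second RAB8B probe set gave a difference of 0.01 ± 0.21. A difference that misses the threshold does not show that an effect was equal at both times.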

How the data were processed

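Expression was measured on 24 Affymetrix arrays. The deposited values are linear probe-set intensities made by the authors with MAS5, per the submitters' processing notes, whose version and settings are not given in the sources used here. Arrays had been scaled to a common 2% trimmed mean (500.07 to 500.08), a step that fixes overall brightness. Of 54675 probe sets, 62 were controls, 41091 had 1 gene symbol, 1801 several and 11721 none. The brightest probe set stood for each gene, and genes at or under a mean log2 intensity of 6.108, the median probe set, were left out. limma 3.58.1 (R 4.3.3, statmod 1.5.0) fitted 4 group means to log2(intensity + 8) with population as a random block (consensus correlation -0.0229), and p-values were adjusted by Benjamini-Hochberg over all genes and called under 0.05. Fold changes on this scale understate the change of dim genes and precision is limited by the number of arrays. The code was tested on simulated data. Named genes were, by rule, the 10 with the smallest p in each direction, 3 with the largest statistic in each cell-cycle list, measured reported targets and the host gene, and the 5 called genes of smallest p for each single-time effect. The gene lists and members were chosen with earlier results of these data known. Alternatives were other normalizations, filters, pseudocounts, blocks, probe-set rules and left-out arrays.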

Additional observations from a re-analysis of the deposited data

Results flagged for a closer look

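Among 84 groups of 6 arrays checked for the 20 genes with the smallest p and the cell-cycle mean, 6 held 1 array far from the other 5, and chance gives about 1 in 20. Control population B induction 2 at 24 h, which also had the highest ACTB ratio, stood apart for 3 genes. It was at 958.4 for SIGLEC10 (others 738.1 to 810.1), at 1527 for CD86 (others 2045 to 2157) and at 3573 for KNSTRN (others 2868 to 3010). At 12 h control population B induction 3 was at 4235 for CD86 (others 3564 to 3723). Control population B induction 2 was at 3450 for RNASEH2A (others 3950 to 4109), and control population A induction 1 was at 1925 for FAM83D (others 2163 to 2284). The part of RNA quality in these values was not tested.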

How the results depend on the processing

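The difference between times called 0 genes under every alternative run except 1: without miR-28 population A induction 1 at 12 h it called 1, CLSTN3. Leaving out each array in turn gave 0 to 1 called genes in the difference, 685 to 885 at an unadjusted p under 0.05, 28 to 72 called at 12 h, 453 to 680 at 24 h, 353 to 572 with time in miR-28 cells and 491 to 741 in control cells. The cell-cycle median then ran from -0.227 to -0.182. At an unadjusted p under 0.05, 51 to 73 members were lower (20.7% to 29.7%, against 3.04% to 3.82% of all genes). Population changes were apart for 119 to 141 members. In the main fit 18.3% of all genes were apart in that direction. The 12 h count was 28 and 39 without control inductions A1 and B2, and 38, 37, 38 and 40 without miR-28 inductions A2, A3, B2 and B3, all at 12 h. The miR-28 count with time was 353 without induction B1 at 12 h. Median centring gave 421 genes with time in control cells and a cell-cycle median of -0.125. It gave 21 lower members (8.54%, against 1.37% of all genes) and 80 population changes apart (32.5%, against 9.8%). Without a filter 30 genes were called at 12 h, 368 at 24 h, 207 with time in miR-28 cells and 364 in control cells. With population means as the unit limma called 0 in all contrasts, with 755 at an unadjusted p under 0.05 in the difference. Of the cell-cycle members 25 were then lower (10.2%, against 3.14% of all genes). Population A alone gave 0 at 12 h, 39 at 24 h, and 8 and 13 with time in miR-28 and control cells. Its cell-cycle median was -0.139, with 25 lower members (10.2%, against 2.64% of all genes). Population B alone gave 0, 36, 3 and 34, with a median of -0.236. These settings have fewer arrays, and other causes were not tested.

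Same-numbered inductions of one population correlated at -0.0776 to 0.0695 in their deviations, and differently numbered ones at -0.0645 to 0.0886. Such low correlations cannot settle whether the numbers pair samples. With the replicate block the difference called 0 genes, with 937 at an unadjusted p under 0.05, and 632 and 808 genes changed with time in miR-28 and control cells. With a replicate block within genotype 321 changed in miR-28 cells. Effects at single times could not be estimated in that fit or with population as a fixed term.

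Of 82 named genes 12 changed the sign of their difference in some setting, none of them called. With the mean of probe sets these were DHRS7 (-0.182), NFE2L2 (0.129), RAB23 (-0.303), SPCS3 (0.00679), SPDL1 (0.154) and STK35 (-0.0938). With median centring they were NFE2L2 (0.0656) and GSPT2 (0.0503), and without the arrays of high ACTB ratio 0.0843 and 0.0838. In population A alone they were MAD2L1 (0.0156), DHRS7 (-0.0155), GSPT2 (0.135), H1-2 (0.071) and H3C2 (0.0364), and in population B alone NFE2L2 (0.00735), CDKN1A (-0.113) and HOXB3 (-0.196). Leaving out single arrays, NFE2L2 ran from -0.126 to 0.108 and GSPT2 from -0.0905 to 0.0652.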

Other observations

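Probe sets with no gene symbol or several were fitted apart. Of 5263 tested, limma called 0 in the difference (smallest adjusted p 0.983), while 134 were lower and 97 higher at an unadjusted p under 0.05 (4.39% together).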
